A study of Homo sapiens with 8 samples.

Results

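Choroid plexus-like cells were found among neural cultures made from H1 (an established line of human embryonic stem cells) and are described here by their number, their genes and where they occurred. A cell was counted as a member if the deposited matrix held a value of 3 or more for TTR and of 1 or more for at least 2 of 6 partner genes, HTR2C, CLIC6, OTX2, PRLR, FOLR1 and KCNJ13. By this rule 545 of 43693 cells were members, or 1.25% (95% exact binomial interval 1.15 to 1.36, which covers counting error only). The rule used measured values, so the levels of these 7 genes are given as descriptions and support nothing.

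The choroid plexus is a folded epithelium in the ventricles of the brain. It secretes cerebrospinal fluid, moves solutes between blood and that fluid, and releases carrier proteins into it. It arises from the dorsal midline of the neural tube, beside the cortical hem and the roof plate, and its cells carry cilia. Transthyretin, the product of TTR, carries thyroid hormone and retinol-binding protein and is the best known protein of this tissue, while HTR2C encodes a serotonin receptor that the epithelium makes in large amounts.

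Single-cell RNA was measured in flat (2-D) cultures and in organoids (3-D), and the series text names dopamine, cocaine and morphine as the agents tested. Cells were dissociated, fixed and given barcodes by repeated splitting and pooling, and the 8 deposited samples are 8 sublibraries of one pool, planned at 50000 reads a cell per the labels. Each cell name carries 1 of 46 culture tags with an arrangement, a treatment and a number. The arrangements 2DCocu (12 tags) and 3DFusi (10 tags) carried the treatments AcCoc, AcMor and Vehic. The arrangements 2DMono and 3DMono (6 tags each) carried AcDop, AcMor and Vehic. The others, 2DProto2Fjo, 2DProto3Wu and 2DProto4Nic (2 tags each) and 3DProto1For and 3DProto2Xia (3 tags each), carried no treatment. The labels do not define these letters, although the treatments fit the agents the series names, and the labels list untreated among the treatments, where the tags read Vehic. All cultures share the single H1 line, 2 or 3 organoids were dissociated together, and whether tags are separate cultures is not stated, so n counts tags and a p-value measures only the spread between tags.

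Sublibraries held 5290 to 5602 cells and 83960489 to 116835921 counts. Members were deeper than other cells, with a median of 34326.8 against 12652.4 counts and 7620 against 4544 detected genes. The median share of mitochondrial counts was 5.25% in members and 2.60% in other cells. A comparison with simulated doublets called 154 members (28.3%) and 9.44% of other cells doublets. The share reached 45 of 69 members in 3DFusi Vehic 1 and 14 of 21 in 3DFusi AcCoc 1. At least 5 of 8 neuron markers were seen in 197 members (36.1%) and in 47.5% of other cells. The combination of barcodes of 66 members (12.1%) also occurred in another sublibrary, as it did for 11.2% of all cells, and 0 cells shared one within a sublibrary. Values with each cell thinned to 5000 counts, or without called doublets, are given beside some results below. For the others the part of depth and of doublets was not tested.

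Among the genes of the rule, TTR ran from 3 to 748.1 counts a member, with quartiles at 6, 14 and 33.1. HTR2C had a value of 1 or more in 539 members (98.9%), OTX2, a transcription factor of the dorsal midline, in 504 (92.5%), and CLIC6, a chloride channel family member, in 385 (70.6%). PRLR, the prolactin receptor, reached that value in 196 members (36.0%), the folate receptor FOLR1 in 36 (6.61%) and the potassium channel KCNJ13 in 29 (5.32%). Exactly 2 partners were present in 142 members, 3 in 244, 4 in 124, 5 in 33 and all 6 in 2 members.

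Values on both sides of the threshold are given as a description. The 64 members with a TTR value of 3 to under 4 had a summed HTR2C level of 1567 CPM (the gene's part of the summed counts, on the usual CPM scale), and TRPM3, a channel of the choroid plexus, stood at 2059.6 CPM. The 133 cells with 2 or more partners and a TTR value of 2 to under 3 had 1368 CPM of HTR2C and 2478.1 CPM of TRPM3. The 77 cells with a TTR value of 3 or more but only 1 partner had 1202.5 and 2118.2 CPM, at a lower median depth of 16314.9 counts. The count of members therefore moved with the rule. A TTR minimum of 5 left 441 members, at least 3 partners left 403, and leaving out called doublets left 391. With every cell thinned to 5000 counts before the rule was applied, 190 of 41745 cells were members.

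Low values of TTR also occurred in cells of another type. Of 20479 neuron-like cells, the cells other than members with at least 5 of 8 neuron markers, 6.38% had TTR seen (an entry of 0.5 or more), at a median of 14176.8 counts a cell against 34326.8 in members. This share was 13.1% in 2DProto2Fjo, 11.4% in 2DProto4Nic, 10.4% in 3DFusi and 9.85% in 3DMono. In the other arrangements, which held few members, it ran from 1.08% in 2DCocu to 4.67% in 3DProto1For. It was thus higher in the arrangements with more members. A TTR value of 3 or more was found in 56 neuron-like cells (0.273%), a count that leaves out the 197 members with as many neuron markers.

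Members were spread unevenly over the cultures. They occurred in 29 of 46 tags, and 8 tags with 20 or more members each held 453 of them (83.1%). The 2DProto2Fjo arrangement held 176, at 5.95% and 8.25% of the cells of its 2 tags. These were the highest shares of all tags, the next being 4.69% in 3DFusi AcCoc 3. The 2DProto4Nic arrangement held 46, at 1.32% and 2.77% of its tags, 3DFusi 192 and 3DMono 116. Only 5 members came from 3DProto1For, 4 from 2DCocu, 3 from 3DProto2Xia, 2 from 2DMono and 1 from 2DProto3Wu. The 2-D format as a whole thus held 229 members (1.04%) and 3-D 316 (1.46%), and both ends of the range lay within 2-D.

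**Figure D1:**
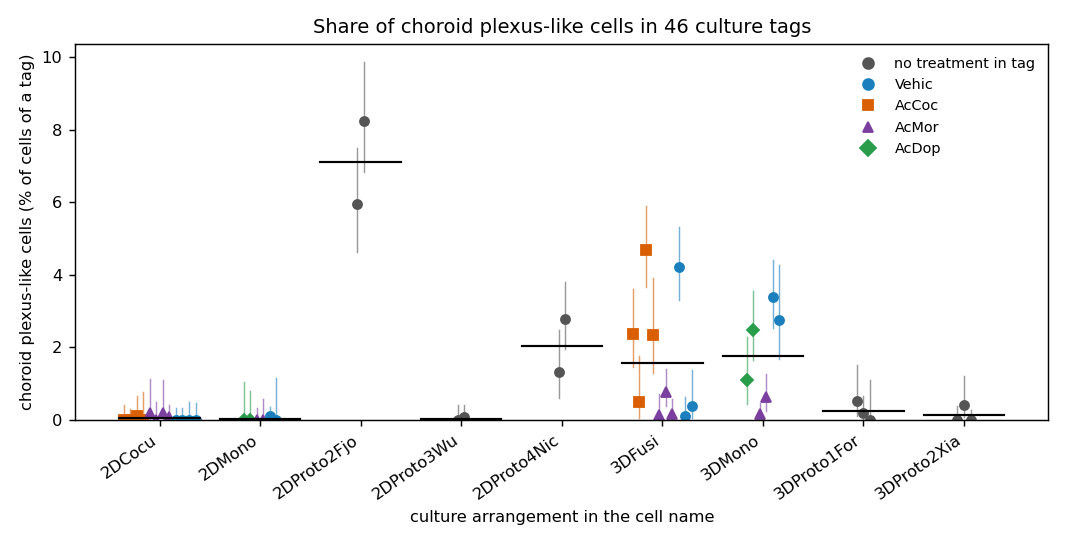
Share of choroid plexus-like cells (vertical axis, percent of the cells of a tag) in the 46 culture tags, by arrangement (horizontal axis). Points are tags, vertical lines their 95% exact binomial intervals (counting error only), black bars the means of an arrangement. The 2DProto2Fjo tags stand at 5.95% and 8.25%, and the 12 2DCocu tags at no more than 0.202%.

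Organoids held more members than flat cultures of the matching treatments. In 3DMono the share per tag was 1.75% ± 1.30 (SD, n = 6, range 0.163 to 3.38) and in 2DMono 0.0170% ± 0.0417 (n = 6, range 0 to 0.102), and the groups did not overlap. The exact permutation test of tags within treatment, two-sided, gave p = 0.00926, the smallest this design allows, and 0.0417 adjusted over 9 such tests. In 3DFusi it was 1.57% ± 1.75 (n = 10, range 0.111 to 4.69) against 0.0491% ± 0.0799 (n = 12, range 0 to 0.202) in 2DCocu, with a permutation p of 7e-05 (adjusted 0.00063). The difference had the same sign in each treatment, at 0.390 percentage points for AcMor, 1.79 for AcDop and 3.02 for Vehic in the first pair. In the second pair it was 0.235 points for AcMor, where the tags overlapped, 2.44 for AcCoc and 1.57 for Vehic. After thinning to 5000 counts the first pair differed by 0.598 points and no longer passed (exact permutation p = 0.0278, adjusted 0.125), while the second still did. Without called doublets, with a TTR minimum of 5 or with 3 partners both pairs passed. The labels describe papain for organoids and say nothing of flat cultures, so format and handling cannot be told apart. TTR was also seen in more neuron-like cells of 3DMono than of 2DMono (9.85% against 2.12%). The same held for 3DFusi and 2DCocu (10.4% against 1.08%). The part of this in the shares of members was not tested.

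Shares varied widely between tags of 1 treatment in 3DFusi. There the Vehic tags stood at 4.22%, 0.111% and 0.379%, the AcCoc tags at 2.37%, 0.488%, 4.69% and 2.35%, and the AcMor tags at 0.129%, 0.770% and 0.161%. The groups overlapped, and neither AcCoc (a difference of 0.901 points, exact permutation p = 0.429, adjusted 0.551) nor AcMor (a difference of -1.22 points, exact permutation p = 0.7, adjusted 0.787) passed. In 3DMono the Vehic tags stood at 3.38% and 2.76%, the AcDop tags at 1.11% and 2.48% and the AcMor tags at 0.163% and 0.617%. Both AcMor tags lay below both Vehic tags, as did both AcDop tags, but 2 tags against 2 cannot give an exact permutation p below 0.333, the value obtained for each (adjusted 0.551). In 2DCocu 3 of 4 AcMor tags and 1 of 4 AcCoc tags held a single member each and 0 of 4 Vehic tags held one. The Vehic tags of 753 to 1160 cells allow shares of up to 0.259% to 0.398% (3 cells of each tag's total). Neither difference passed there (exact permutation p = 0.143 and 1, adjusted 0.429 and 1). In Vehic and AcMor tags 3DFusi (0.962% ± 1.62, n = 6 with 3 tags a treatment, where 3DMono had 4) and 3DMono (1.73% ± 1.58) did not differ beyond the spread of tags (permutation p = 0.38, adjusted 0.551). Sublibraries held 0.926% to 1.43% members (chi-square 7.37 on 7 degrees of freedom, p = 0.391).

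The levels of other genes in members were set beside those of the remaining 43148 cells, as a description with no test, since members were chosen on RNA of the same cells. A ratio is that of summed CPM with 1 CPM added to each. Over 20570 genes at 1 CPM or more in either set the median ratio was 0.943, and 786 genes (3.82%) were at least 2-fold higher and 899 (4.37%) at least 2-fold lower in members. The gene with the largest ratio outside the rule, among those seen in at least 20% of members, was the noncoding RNA MIR646HG (264.8 against 12.2 CPM, ratio 20.1). It was followed, past the rule gene CLIC6 and PGM5P4-AS1, by TRPM3, an ion channel known from the choroid plexus (5327.3 against 294.7 CPM, ratio 18.0), and by RBM47, an RNA-binding protein (784.1 against 42.8 CPM, ratio 17.9). Further down the 25 leading genes were the metabotropic glutamate receptor GRM8 (ratio 11.6), the retinoid transporter ABCA4 (15.0), the amino acid transporter SLC7A8 (8.95), the vesicular glutamate transporter SLC17A8 (9.05), the calcium-binding CALB1 (8.71), the transcription factors EYA4 (9.38) and MITF (8.09) and the copper-carrying secreted protein ceruloplasmin, CP (7.87). Without called doublets the ratios of these genes were larger, for example 22.9 for TRPM3 and 9.21 for MITF. In both 2DProto2Fjo tags CP stood nearly level in members and other cells, as given below.

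**Figure D2:**
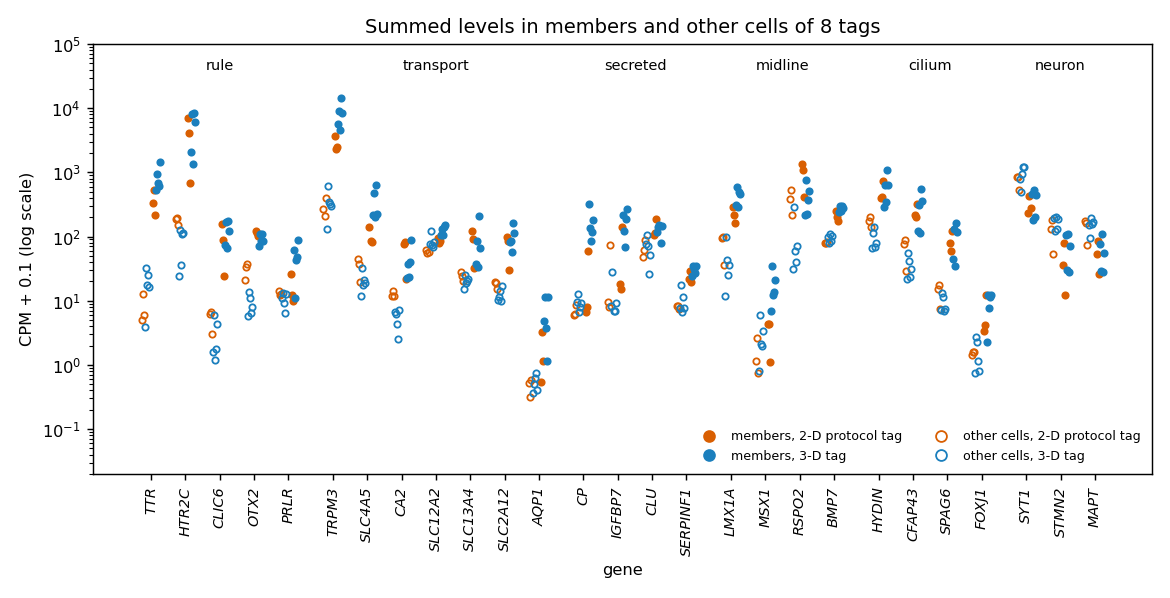
Summed level (vertical axis, CPM with 0.1 added, log scale) of genes of the rule and of named lists in members (filled) and in other cells (open) of the 8 tags with 20 or more members. Each point is 1 tag. TRPM3, LMX1A and HYDIN lie higher in members in all 8 tags, and the neuron genes SYT1, STMN2 and MAPT lower in all 8.

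Genes of fluid secretion were present to unequal extents. Of the 15 on the list, 14 were at 1 CPM or more and 5 were at least 2-fold higher in members: TRPM3, the sodium bicarbonate cotransporter SLC4A5, the carbonic anhydrases CA2 and CA14 and the water channel AQP1. SLC4A5 was seen in 81.1% of members and 23.5% of other cells (206.8 against 20.9 CPM), and in 50.4% and 8.13% with cells thinned to 5000 counts. CA2 stood at 52.9 against 9.11 CPM. AQP1, abundant in the mature choroid plexus, was seen in 12.5% of members and 1.07% of other cells, or 1.48% and 0.228% after thinning (4.76 against 0.686 CPM, ratio 3.42). The potassium channel subunit KCNE2 stood at 0.458 against 0.226 CPM. Genes that many cells use differed less: the sodium-potassium-chloride cotransporter SLC12A2 had a ratio of 1.26 and the sodium pump subunit ATP1B1 had a ratio of 1.24. The median ratio of the list was 1.65 against 0.943 over all genes.

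Among 12 solute carriers of the barrier between blood and cerebrospinal fluid, 3 were at least 2-fold higher. These were the glucose transporter SLC2A12 (83.1 against 12.4 CPM), the sulfate transporter SLC13A4 (77.3 against 19.3 CPM) and the organic anion transporter SLC22A8 (2.26 against 0.243 CPM). The thyroid hormone transporter SLCO1C1 stood at 9.13 CPM in members and 14.9 in other cells. Among 15 secreted factors 5 were at least 2-fold higher, namely CP, IGFBP7 (102 against 27.5 CPM), the lysophospholipase ENPP2 (48.1 against 12.3 CPM), the antiangiogenic SERPINF1 (27.8 against 7.94 CPM) and the chaperone clusterin, CLU (133.6 against 62.9 CPM). In the 8 tags with the most members these differences were uneven. CP was higher in members in all 8, but only at 6.57 against 5.81 CPM in 2DProto2Fjo 1 and 7.76 against 6.16 in 2DProto2Fjo 2. ENPP2 was lower in members in 2DProto2Fjo 1 (7.02 against 8.98 CPM), 2DProto2Fjo 2 (6.24 against 8.23) and 3DFusi AcCoc 3 (37.3 against 38.8). It was higher in members in the others of these tags. IGF2 was lower in the sum (195.5 against 330.4 CPM) but higher in members in 6 of 8 tags. PTGDS, a major product of mature choroid plexus, had 5.37 against 4.08 CPM, and transferrin, TF, 1.43 against 2.10 CPM.

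Among regulators of the choroid plexus and dorsal midline, 5 of 12 at 1 CPM or more outside the rule were at least 2-fold higher in members (median ratio 1.41). LMX1A, a transcription factor of the roof plate and cortical hem, was seen in 93.2% of members and 13.8% of other cells, or 69.4% and 9.59% after thinning (324.5 against 59.6 CPM), and MSX1, a target of BMP signalling, stood at 11.7 against 1.76 CPM. Of 14 genes on the list of hem and roof plate signals, 8 were at least 2-fold higher (median ratio 2.21). The WNT enhancer RSPO2 stood at 666.0 against 141.9 CPM, its relative RSPO1 at 47.6 against 9.50, and the growth factor BMP7 at 243.6 against 94.4. The ligands WNT3A and WNT8B had ratios of 2.68 and 2.46. BMP6 was lower in the sum (19.1 against 33.2 CPM), and WNT1 stood at 0.212 CPM.

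Motile cilium genes were higher as a group, with 15 of 20 at least 2-fold higher and a median ratio of 3.5. HYDIN, a protein of the central apparatus, stood at 508.2 against 137.5 CPM, the axoneme gene SPAG6 at 82.8 against 12.6 and CFAP43 at 238.7 against 42.0. The regulator of motile cilia FOXJ1 stood at 7.50 against 1.72 CPM and after thinning was seen in 3.87% of members and 0.646% of other cells. Set against 215 cells with FOXJ1 and at least 2 of 4 cilium genes but no TTR (median 28658.7 counts a cell), the cilium genes HYDIN and CFAP43, which did not choose those cells, had ratios of 0.801 and 0.905, and the dynein DNAH9 one of 0.496. Of 19 cilium genes at 1 CPM or more, 0 were 2-fold higher and 4 2-fold lower than in those cells (median ratio 0.733). FOXJ1, PIFO, RSPH1, TEKT1 and SPAG6 of this list were used to choose those cells. The count and the median ratio of the list are therefore partly fixed by that choice. Of the list of regulators, 0 genes were 2-fold higher and 2 were 2-fold lower than in those ciliated cells (median ratio 0.794), where FOXJ1 is 1 of the 2 and was used to choose them, and of the hem and roof plate signals 0 were higher and 3 lower (1.28). TRPM3 (ratio 7.80), SLC4A5 (6.13) and CP (3.93) were higher in members than in those ciliated cells, where 525 of the 20570 genes (2.55%) were at least 2-fold higher in members. The floor plate gene SHH had a ratio of 0.0608 there and NTN1 one of 0.103.

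Junction and keratin genes were mixed. Of 16, 7 were at least 2-fold higher, among them the tight junction genes OCLN (31.4 against 12 CPM), TJP3 (9.74 against 2.80) and CLDN1 (7.28 against 2.10) and the keratin KRT8 (9.73 against 2.23). The claudins CLDN2 and CLDN11 stood at 0.117 and 0.143 CPM in members and 0.543 and 0.599 in other cells. EPCAM stood at 3.11 against 1.81 CPM. Among receptors of the agents in the series text, 0 of 15 genes at 1 CPM or more outside the rule, of 21 listed, were 2-fold higher in members. The dopamine receptor DRD1 stood at 1.09 CPM in members and 0.288 in other cells, DRD2 at 3.91 and 3.29 CPM, and the mu opioid receptor OPRM1 at 7.27 and 10.4 CPM.

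Markers of other cell types were as follows. Of 8 neuron markers 7 were at least 2-fold lower in members, DCX being the exception (ratio 0.670), and their summed level ran from 490.5 to 1254.2 CPM in members of the 8 tags and from 1220.5 to 2441.4 CPM in other cells. The neuron gene SYT1 had a ratio of 0.424, and of 0.251 without called doublets. Of the 10 markers of retinal pigment epithelium, which also uses OTX2, MITF (ratio 8.09, higher in 7 of 8 tags) and the retinoid isomerase RPE65 (46.6 against 10.4 CPM) were at least 2-fold higher. TYRP1 stood at 2.15 against 1.22 CPM (higher in 7 of 8 tags), TYR at 11.2 against 7.04 (6 of 8), PMEL at 3.17 against 3.28 (4 of 8) and DCT at 4.84 against 5.90 (1 of 8). The summed level of this list was 210.8 against 54.8 CPM and higher in members of all 8 tags. Most of the sum in members came from MITF (133.6 CPM) and RPE65. BEST1, also listed, was lower in members in all of these tags but 3DMono AcDop 2. Liver genes, which accompany TTR in that organ, were each seen in under 5% of members, for all 10 listed. ALB was seen in 1.47% of members, AFP in 0.734% and APOB in 1.83%. The sums of AFP and APOB over all members were nevertheless above those of other cells (6.45 against 0.205 CPM and 10.1 against 0.298 CPM), from few cells. Of the 8 pineal and photoreceptor genes 4 were at 1 CPM or more and 0 were 2-fold higher (median ratio 1.40), with sums of 14.1 against 10.6 CPM. The mesenchymal genes COL1A1 and COL3A1 had ratios of 0.257 and 0.424, but the receptors PDGFRA and PDGFRB had ratios of 2.76 and 2.29.

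Levels in members of the 8 larger tags are given as a description. Among genes of the rule, HTR2C ran from 694.7 CPM in 2DProto4Nic 2 and 1372.3 in 3DFusi Vehic 1 to 8104.2 in 3DFusi AcCoc 3 and 8387.5 in 3DMono AcDop 2. TTR was lowest in 2DProto4Nic 2 (218.6 CPM) and highest in 3DMono Vehic 1 (1470.5). CLIC6 stood at 23.8 CPM in 2DProto4Nic 2 and 65.6 to 175.3 in the other 7 tags. Outside the rule, MITF was lowest in 2DProto4Nic 2 (9.53 CPM, against 74.8 to 366.2). The ciliary dynein DNAH9 was highest there (459.8 CPM, against 32.8 to 282.7), as was WLS, which carries WNT proteins to the cell surface (1863.1 CPM, against 200.3 to 463.3). WLS was also highest in other cells of that tag (944.3 CPM). The summed level of the motile cilium genes in members ran from 1292.5 CPM in 3DFusi AcCoc 1 to 4906.8 in 3DMono AcDop 2. The 2 tags with the highest share of members called doublets, 3DFusi AcCoc 1 and Vehic 1, had the highest summed neuron (1187.7 and 1254.2 CPM) and cycling (676.4 and 526.9 CPM) markers among members. The part of doublets in these levels was not tested.

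Members of 3-D and of 2-D protocol tags were compared in summed counts, as the planned comparisons between treatments had too few members. The 5 tags of 3DFusi (AcCoc 1, AcCoc 3, Vehic 1) and 3DMono (AcDop 2, Vehic 1) were set against 2DProto2Fjo 1 and 2 and 2DProto4Nic 2. Here and in the comparison with other cells below, the 3-D side was the average of a 3DFusi and a 3DMono mean. Each 3DMono tag thus weighed more than a 3DFusi tag, and a fit without 1 3DMono tag rested that mean on the other alone. Arrangement, protocol, treatment and handling differ together here and cannot be told apart. Members of these tags summed to 958207 to 5225411 counts. With edgeR's quasi-likelihood test on 15561 genes, 22 (0.141%) were higher and 26 (0.167%) lower in 3-D members at a Benjamini-Hochberg adjusted p of 0.05, and 2110 (13.6%) had an unadjusted p under 0.05. The groups of all 48 did not overlap. Leaving out 1 tag could thus hardly turn a direction, and all 48 kept theirs in each of the 8 fits without 1 tag. The number called, however, rested on single tags. It was 0 without 3DMono AcDop 2 or without 3DMono Vehic 1, 2 without either 2DProto2Fjo tag, 3 without 3DFusi AcCoc 1 and 6 without 3DFusi Vehic 1. It was 76 without 3DFusi AcCoc 3 and 252 without 2DProto4Nic 2. DESeq2 called 453, including all 48, and leaving out called doublets left 21, of which 15 were among the 48. That last fit also lacked 3DFusi AcCoc 1, which fell below 20 members, so the 2 changes cannot be told apart.

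Of the listed genes only ENPP2, a secreted factor, was called higher in 3-D members. SLC39A12, SLC16A10 and SLC16A9, described here too, are on no list. SLC39A12, a zinc importer known from the brain, stood at 3.29, 3.42 and 2.38 CPM in the 2-D protocol members. In 3-D members it stood at 31.8 and 49.9 in 3DFusi AcCoc 1 and 3, 21.2 in 3DFusi Vehic 1, 27.1 in 3DMono AcDop 2 and 30.7 in 3DMono Vehic 1. The groups did not overlap, as for 8.33% of all genes tested, and the log2 fold change was 3.31 (SE 0.34, edgeR adjusted p = 0.0192). In other cells of these tags it lay between 0.524 and 2.04 CPM. ENPP2, which makes the signalling lipid lysophosphatidic acid, stood at 6.24 to 9.52 CPM in 2-D and 37.3 to 141.9 in 3-D members (log2 fold change 3.35, SE 0.36, edgeR adjusted p = 0.0192). Other cells stood at 4.55 to 9.42 CPM, apart from 38.8 in 3DFusi AcCoc 3. The aromatic amino acid transporter SLC16A10 stood at 103.2, 82.5 and 43.6 CPM in 2-D members and 143.9 to 328.7 in 3-D members (log2 fold change 1.7, SE 0.26, edgeR adjusted p = 0.0420). SLC16A9, of the same family, rose by 2.07 on the log2 scale, the sarcoglycan SGCD by 3.58, the scavenger receptor COLEC12 by 1.94, the noncanonical WNT receptor ROR2 by 2.28 and the glucocorticoid receptor NR3C1 by 1.65 (edgeR adjusted p from 0.0306 to 0.0496). SGCD also rose in other cells, by 1.37 (edgeR adjusted p = 0.0362). COLEC12 had 1.698 there (edgeR adjusted p = 0.286), and its member-to-other difference, tested below, was -0.06 (SE 0.74) and did not pass. For ENPP2 that difference was 2.93 (SE 0.86, edgeR adjusted p = 0.396) and did not pass either. Among the 8 genes named here only SLC39A12 and SLC16A10 passed that test. Each of the 8 calls in members was lost in at least 5 of the 8 fits without 1 tag.

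The windows around the starts of SLC39A12 and SLC16A10 are shown because these 2 genes are among the 4 called both here and in the comparison with other cells below, and that of HTR2C because it was the partner present in most members. Each is RefSeq's window of 250 bases before to 50 after the start. OTX2, a gene of the rule, binds TAATCC, and capitals mark matches to these letters on either strand.
SLC39A12, GRCh38.p14 chr10:17951668-17951967, plus strand: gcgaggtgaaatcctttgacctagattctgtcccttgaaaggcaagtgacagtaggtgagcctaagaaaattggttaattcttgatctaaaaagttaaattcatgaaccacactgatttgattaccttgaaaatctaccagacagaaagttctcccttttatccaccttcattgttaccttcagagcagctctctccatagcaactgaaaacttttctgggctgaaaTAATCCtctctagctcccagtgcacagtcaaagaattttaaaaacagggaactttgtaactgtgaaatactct
SLC16A10, GRCh38.p14 chr6:111087253-111087552, plus strand: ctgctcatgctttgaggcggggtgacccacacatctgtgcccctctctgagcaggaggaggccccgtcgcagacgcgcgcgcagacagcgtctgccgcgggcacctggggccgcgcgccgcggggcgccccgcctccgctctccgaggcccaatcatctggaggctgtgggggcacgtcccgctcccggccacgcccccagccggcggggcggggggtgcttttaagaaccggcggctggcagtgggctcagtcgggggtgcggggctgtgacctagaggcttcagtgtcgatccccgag
HTR2C, GRCh38.p14 chrX:114583836-114584135, plus strand: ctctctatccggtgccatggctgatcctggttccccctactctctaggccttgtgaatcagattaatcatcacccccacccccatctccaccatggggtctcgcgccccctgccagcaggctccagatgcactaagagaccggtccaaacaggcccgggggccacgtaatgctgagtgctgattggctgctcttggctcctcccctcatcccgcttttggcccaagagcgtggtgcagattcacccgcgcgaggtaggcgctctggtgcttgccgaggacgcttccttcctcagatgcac
SLC39A12 held 1 match, at position 228 of the window on the plus strand, and the other windows held 0. A match was held by 2132 of 27305 genes with a window (7.81%), against 2 of the 17 leading genes of members with a window (SLC7A8 and VWA5B1), 2 of 17 genes higher in 3-D members and 1 of 13 genes lower in them. A match to letters is a description of the sequence, and nothing on OTX2 follows from its absence in a window of this length.

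**Figure D3:**
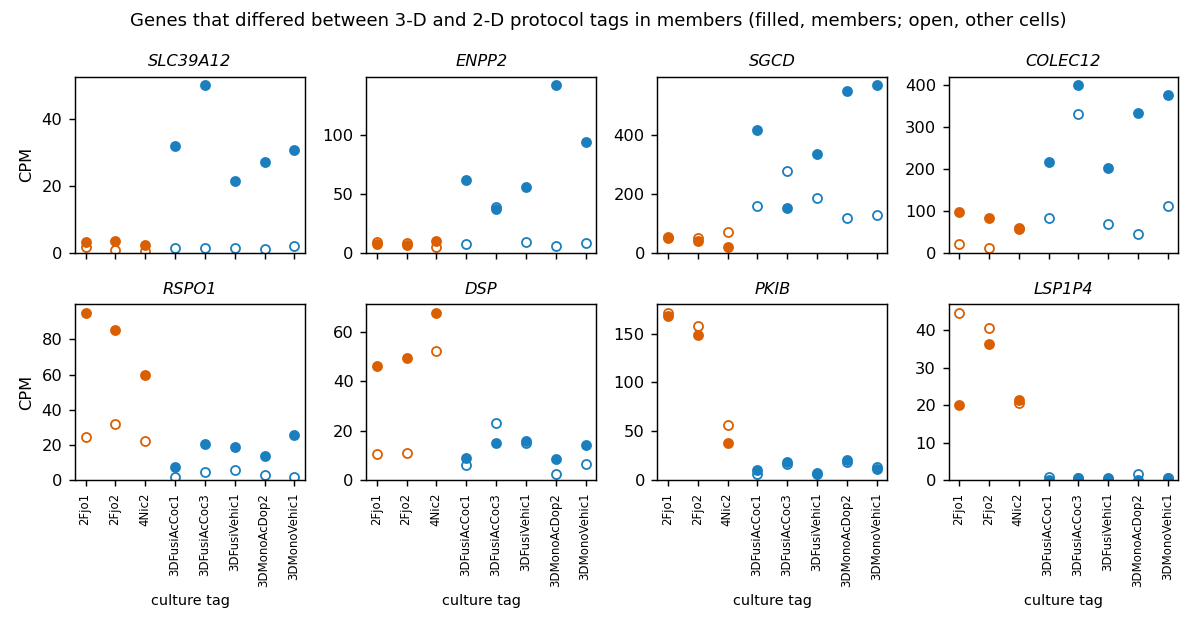
Level (vertical axis, CPM) of 8 genes called between 3-D and 2-D protocol tags, by culture tag (horizontal axis; orange 2-D, blue 3-D), in members (filled) and in other cells (open). SLC39A12 is at most 2.04 CPM in other cells and 21.2 or more in the 5 sets of 3-D members, whereas PKIB and LSP1P4 show the same step in other cells.

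Genes lower in 3-D members included 2 of 13 tested hem and roof plate signals. The WNT enhancer RSPO1 stood at 95.3, 85.3 and 59.9 CPM in 2-D members and 7.25 to 25.8 in 3-D members (log2 fold change -2.21, SE 0.31, edgeR adjusted p = 0.0383). It fell in other cells of these tags too, from 24.5, 31.8 and 21.9 CPM to between 1.66 and 5.75 (log2 fold change -3.20, edgeR adjusted p = 0.0150), and the member-to-other difference did not pass (0.98, SE 0.28, edgeR adjusted p = 0.280). BMP6 stood at 39.1, 26 and 26.6 CPM against 4.50 to 14.9 (log2 fold change -2.06, SE 0.32, edgeR adjusted p = 0.0420), while in other cells it had 0.41 (edgeR adjusted p = 0.634). The desmosome gene DSP fell by 2.20 on the log2 scale, the imprinted growth regulator DLK1 by 3.62 and the protein kinase inhibitor PKIB by 3.09 (edgeR adjusted p from 0.0383 to 0.0420). PKIB fell in other cells as well (log2 fold change -3.42, edgeR adjusted p = 0.0150). These 5 calls were each lost in 6 of the 8 fits without 1 tag. The largest falls were those of the pseudogene LSP1P4 (25.9 ± 9.11 CPM, SD, n = 3, against 0.235 ± 0.254, n = 5) and the zinc finger gene ZNF37A (10.7 ± 5.90 against 0.524 ± 0.320), and the pseudogene PLD5P1 fell from 56.1 ± 12.1 to 3.05 ± 1.32 CPM. Pseudogenes share sequence with their parent genes, so these values are uncertain. In other cells of the same tags LSP1P4 and PLD5P1 fell too (log2 fold change -5.45 and -3.84, edgeR adjusted p = 0.00231 for both), as did ZNF37A (-3.66, edgeR adjusted p = 0.00726). Over the 48 genes, 20 were also called in other cells of these tags, where 85 of 25345 genes (0.335%) were higher and 183 (0.722%) lower, 268 (1.06%) in all, and 46 had the same sign.

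Few listed genes passed this test. The 13 genes of fluid secretion that were tested had 0 calls, but SLC4A5 (141.4, 86.5 and 82.9 CPM in 2-D against 199.0 to 643.9 in 3-D members), SLC4A10 (64.7 to 207.9 against 313.6 to 667.9) and TRPM3 (2318.6 to 3732.7 against 4517.2 to 14590.8) were higher in all 5 sets of 3-D members (edgeR adjusted p from 0.122 to 0.150). With SLC12A2, 4 of the 13 had groups that did not overlap, as had 8.33% of all genes tested. The median log2 fold change of the list was 0.42, against -0.04 over all genes. Of 12 secreted factors 1 was called, ENPP2, and the median was 1.02. IGF2 stood at 14.3 to 26.6 CPM in 2-D and 68.9 to 703.0 in 3-D members (edgeR adjusted p = 0.0980), and in other cells it differed by 4.90 on the log2 scale. Of 13 hem and roof plate genes 2 were called lower, RSPO1 and BMP6, with a median of -0.45. Of 19 cilium genes 0 were called and 0 had an unadjusted p under 0.05 (median 0.29). The keratin KRT8 stood at 10.1 to 36.1 CPM in 2-D and 0.806 to 3.44 in 3-D members (edgeR adjusted p = 0.0671). The 14 immediate early genes, which respond to stimulation and handling, had 0 calls and a median of -0.58. Over the 3 2-D and the 5 3-D tags the share of members called doublets was 13.5% to 23.9% and 12.9% to 66.7%, and the summed progenitor markers were 201.3 to 461.4 CPM and 336.4 to 830.7 CPM. In the same order, the median mitochondrial share of members was 5.1% to 8.2% and 3.4% to 6.3%. The summed cycling markers were 97.4 to 213.7 CPM and 33.8 to 676.4 CPM. The part of these in the differences was not tested.

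The difference between members and other cells was then compared between the same tags, which sets each tag's members against cells of its own culture. In edgeR's quasi-likelihood test of this interaction over 22498 genes, 26 (0.116%) had a member-to-other difference that was higher in 3-D and 5 (0.0222%) one that was lower. These 31 (0.138%) stood beside 1908 genes (8.48%) with an unadjusted p under 0.05, and in all 31 the member-to-other differences of both formats did not overlap, as for 5.4% of genes tested. SLC16A10 gave the lowest adjusted p. Members exceeded other cells in every tag, at 103.2 against 42.1 CPM, 82.5 against 36.6 and 43.6 against 20.3 in 2-D, but at 192.6 against 14.5 CPM, 243.7 against 28.5, 143.9 against 16.4, 313.1 against 23.5 and 328.7 against 24.8 in 3-D. The interaction was 2.31 on the log2 scale (SE 0.18, edgeR adjusted p = 0.000687), and it passed in all 8 fits without 1 tag. The channel partner KCNIP1 also passed in all 8. It was 77.0 to 270.9 CPM in 2-D members and 105.0 to 279.0 in the other cells there, against 225.2 to 376.1 and 88.5 to 122.7 in 3-D (interaction 1.67, SE 0.16, edgeR adjusted p = 0.00417). FRMPD3 and IGSF21 passed in 7 of 8 (interaction 1.65 and 1.72, edgeR adjusted p = 0.00417 for both). In other cells alone, IGSF21 and FRMPD3 were lower in 3-D (log2 fold change -1.94 and -1.12, edgeR adjusted p = 0.0215 and 0.0230), and KCNIP1 had -0.90 (edgeR adjusted p = 0.122).

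SLC39A12 (interaction 2.67, SE 0.44, edgeR adjusted p = 0.0469) and SLC4A10, a sodium bicarbonate transporter of the choroid plexus (interaction 1.45, SE 0.24, edgeR adjusted p = 0.0466), were also called, but in 4 and 3 of the 8 fits without 1 tag. SLC4A10 was lower in members than in other cells in all 3 2-D tags and higher in all 5 3-D tags. BMP6 went the other way. It was higher in members in all 3 2-D tags (39.1 against 12.2 CPM in 2DProto2Fjo 1) and lower in 4 of 5 3-D tags (6.45 against 18.7 CPM in 3DFusi AcCoc 1), the exception being 3DMono AcDop 2 with 5.22 against 4.1 (interaction -2.57, SE 0.40, edgeR adjusted p = 0.0464, called in 3 of 8 fits). The immediate early genes EGR1 and FOS had interactions of -1.60 and -1.44 (edgeR adjusted p = 0.0125 and 0.0392), called in 6 and 3 of the 8 fits. In 2-D EGR1 stood at 324.9, 288.7 and 116.6 CPM in members and 89.8, 100.1 and 42.9 in other cells. In 3-D it stood at 145.6 to 308.9 CPM in members and 141.1 to 234.3 in other cells, so the members of both formats overlapped and the other cells did not. Single tags moved the count of 31 calls here too. It was 2 and 5 without 2DProto2Fjo 1 and 2, 11 without 3DFusi AcCoc 1 or 3DMono AcDop 2, 48 without 3DFusi Vehic 1, 70 without 2DProto4Nic 2 and 85 without 3DFusi AcCoc 3. Leaving out members called doublets, and with them 3DFusi AcCoc 1, gave 122, of which 28 were among the 31. Called doublets among the other cells were kept in that fit.

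**Figure D4:**
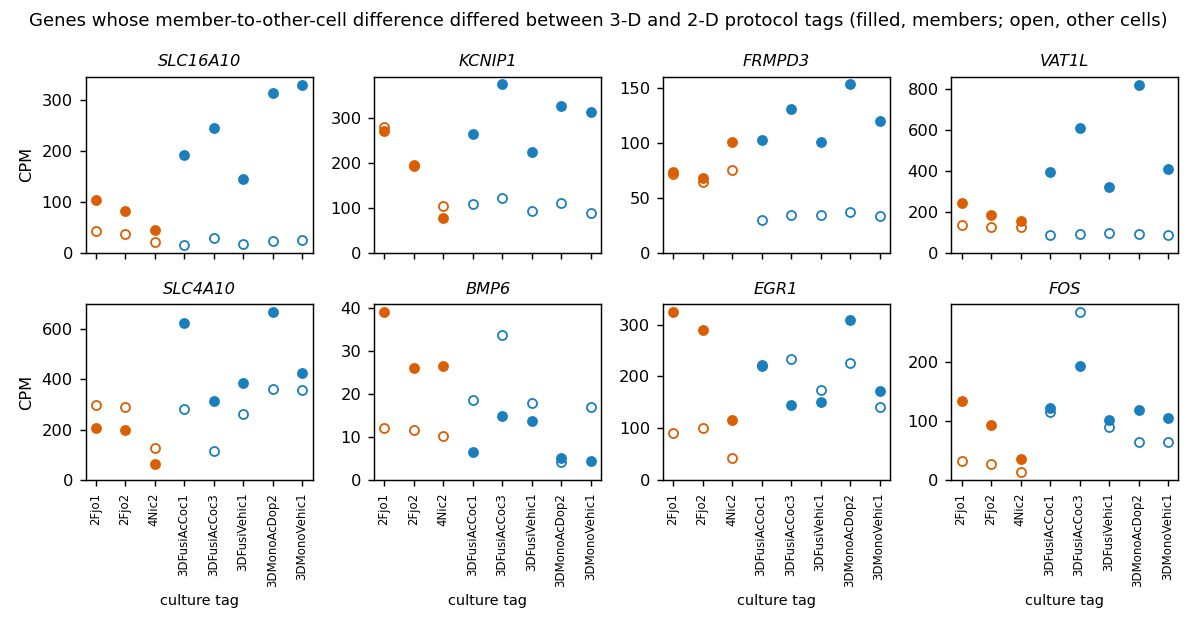
Level (vertical axis, CPM) of 8 genes whose member-to-other difference was called between 3-D and 2-D protocol tags, by culture tag (horizontal axis; orange 2-D, blue 3-D), in members (filled) and other cells (open). SLC16A10 is 143.9 CPM or more in 3-D members and at most 28.5 in the other cells beside them, while FOS and EGR1 differ mainly in the open points.

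Between members of the 3DFusi tags (n = 3) and the 3DMono tags (n = 2) edgeR's quasi-likelihood test called 0 of 15561 genes, with 647 (4.16%) at an unadjusted p under 0.05, and DESeq2 called 9, 1 higher and 8 lower in 3DFusi. On simulated counts for the comparison of 3-D with 2-D protocol tags, with 15561 genes, 77.3% of 4-fold rises and 8.67% of 2-fold rises were recovered. Of the falls, 64% of 4-fold and 11.3% of 2-fold ones were recovered. No simulation was run for 3DFusi against 3DMono.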

How the data were processed

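RNA of single cells from cultures of the H1 line was counted in 8 sublibraries. The authors deposited 1 matrix of expected counts (estimated counts, not scaled) for 60286 genes and 43693 cells. Per the submitters' processing notes, Salmon 1.7.0, alevin, Seurat 4.1.1 and hg38 were used, and the role of each is not given in the sources used here. Of the deposited entries 54.3% are whole numbers, as read with no tolerance. No cell has fewer than 1006 detected genes or more than 9.998% mitochondrial counts. The treatment of multi-mapping reads and the use of strand are not given, so paralogs, pseudogenes and antisense genes are uncertain. Promoter windows are RefSeq's on GRCh38.p14.

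Members were found by the rule, and arrangement, treatment and number were read from cell names, with tags as replicates. The members and lists were chosen with earlier results of these data known. Doublets were called against simulated ones with 100 neighbours (threshold 0.580, exceeded by 66.8% of simulated doublets) and 4225 cells (9.67%) were called and kept. The share of members in each tag was the unit of exact permutation tests (two-sided, tags permuted within treatment), adjusted over 9. Expected counts were summed over the members of each tag with 20 or more and rounded to whole numbers, because edgeR 4.0.16 needs counts. After filterByExpr and TMM scaling they were tested with glmQLFit (robust) and glmQLFTest, in R 4.3.3 with limma 3.58.1. DESeq2 1.42.0 was an alternative. Ratios used a pseudocount of 1 CPM, and CPM is relative to the summed counts of a set of cells.

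Every planned comparison of genes in members (3DFusi against 3DMono in matched treatments, and each treatment against Vehic) had fewer than 2 tags with 20 members on one side, also at 10 members, and was not fitted. The comparisons of 3-D with 2-D protocol tags, of 3DFusi with 3DMono tags of any treatment and of members with other cells were added once the members per tag were known and before genes were compared. Any listed gene could be named. Genes named against other cells were the 25 with the largest ratio among those seen in 20% of members, and in each fit the 12 largest rises and falls among called genes with separate groups, of which examples are given. SLC16A10, SLC16A9, COLEC12, NR3C1 and DSP in the first fit and WLS in the interaction were called but fell outside that rule and were chosen after their values were seen. The comparison of genes in members between 3-D and 2-D protocol tags was checked on simulated data, and the other tests were not. The values of 1 listed gene are not reported here. Python 3.11.15, scipy 1.17.1, scikit-learn 1.9.0 and matplotlib 3.10.9 were used.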

Additional observations from a re-analysis of the deposited data

Results flagged for a closer look

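In the interaction between format and membership 17 genes were named for a difference between 3-D and 2-D protocol tags by edgeR's quasi-likelihood test. The member-to-other difference was higher in 3-D by 3.61 on the log2 scale for ENSG00000283240, 2.87 for FSTL4, 2.67 for SLC39A12, 2.49 for ADCY8, 2.31 for SLC16A10, 2.11 for LGI1, 1.88 for VAT1L, 1.72 for IGSF21, 1.7 for RAB3B, 1.67 for KCNIP1, 1.65 for FRMPD3 and 1.63 for OCA2. For KCNJ16 it was -7.64, with 2.41, 1.81 and 31.3 CPM in 2-D members against 0.151, 0.171 and 3.44 in other cells, and at most 1.72 CPM in 3-D members, 3 of 5 tags being at 0. It was -7.84 without 2DProto4Nic 2. A fitted fold at such low counts depends on the prior count. The interaction was -2.57 for BMP6, -1.91 for NTNG2, -1.60 for EGR1 and -1.44 for FOS. Such a value can come from members or from other cells. RAB3B averaged 32 CPM in 2-D and 21.7 in 3-D members, and fell in other cells from 43.3 to 8.90. NTNG2 averaged 14.2 and 20.7 CPM in members and 9.17 and 45.6 in other cells. SLC16A10 and KCNIP1 were called in all 8 fits without 1 tag. ADCY8 was called in 2 of them, and FSTL4, VAT1L, NTNG2, BMP6 and FOS in 3.

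Samples that stood apart from the others of their group were also found. Sublibrary 2 held 0.926% members, the lowest of 8, with a gap to the next of 0.533 of the range, where 0.526 is the critical value. In 2DCocu AcCoc replicate 3 stood alone above 0, with a gap of 1 of the range over 4 tags, on a single member, and with 1 member over 4 tags this gap is always 1. For the sublibraries, chance gives such a gap in about 1 of 20 groups.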

How the results depend on the processing

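The higher shares in 3-D kept their direction under all alternatives run. Leaving out each tag in turn gave 1.51 to 1.96 percentage points for 3DMono against 2DMono, with an adjusted exact permutation p of 0.0417 to 0.0833 (4 of 12 no longer passed), and 0.974 to 1.66 points for 3DFusi against 2DCocu. Thinned to 5000 counts, the first difference was 0.598 points and did not pass. The difference of AcMor from Vehic in 3DFusi turned to 0.108 points without 3DFusi Vehic replicate 1, and ran from -1.95 to 0.108 over such fits.

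Of genes in members, 3-D against 2-D protocol tags, 48 were called, 453 by DESeq2, 1242 without a filter, 176 with at least 10 members a tag and 21 without called doublets (15 higher and 6 lower), a fit that also lacked 3DFusi AcCoc 1. Leaving out each tag gave 0 to 252. For 3DFusi against 3DMono tags the 0 calls became 9 by DESeq2 and 189 without a filter, and stayed 0 without each tag. For the interaction the 31 calls became 281 without a filter and 109 with at least 10 members. They became 122 without members called doublets and without 3DFusi AcCoc 1, where called doublets among other cells were kept. Without each tag they ran from 2 to 85. The cause was not tested. Of the named genes' values under alternatives, 369 kept direction and call, 235 kept direction only, and 0 reversed. In the fits without 1 tag, 134 kept direction and call and 194 kept direction only. Named genes were required to have groups that did not overlap, so leaving out 1 tag could hardly reverse them.

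A replicate block was not run for genes, where the tags compared come from unlike arrangements and treatments. For shares, with the tag number as a pair, AcCoc exceeded Vehic in 3DFusi by a mean of 1.56 points over 3 pairs (exact permutation p = 0.5) and AcMor by -1.22 (p = 0.75), where 0.25 is the smallest p. Nothing in the labels says that numbers pair tags. The number of members a tag limits all of these results.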
